A study of Mus musculus with 6 samples.

Results

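Genes of neutrophil granules and of the neutrophil cytosol, ordered by the maturation stage that makes them, were followed through 6 RNA libraries of splenic CD4+ T cells. They were 10 genes of 54532 in the deposited table, taken by symbol, of which 4 were primary granule genes (Mpo, Elane, Prtn3 and Ctsg) and 6 were secondary granule or later genes (Ltf, Camp, Ngp, Lcn2, S100a8 and S100a9). All mice were C57BL/6 with experimental autoimmune encephalomyelitis (EAE), the mouse model of multiple sclerosis, taken in its acute phase. Read counts summed to between 18127031 and 25683453 per library. One group of 3 mice, labelled Ogt-KD, had the genotype Ogtfl/wt CD4-Cre, so 1 of its Ogt alleles was floxed, and Cre recombinase came from Cd4 regulatory sequence, active in developing T cells. The other group of 3 control mice has the genotype label wild type, in which neither Cre nor a floxed allele is mentioned, so Cre and Ogt loss cannot be told apart. Ogt, on chromosome X, encodes O-GlcNAc transferase, which adds a sugar to nuclear and cytosolic proteins. Its RNA averaged 597 ± 32.8 CPM in the controls against 573 ± 104 CPM with Ogt-KD (SD, n = 3 each), which on the log2 scale was -0.058 ± 0.15 (SE) and did not pass (edgeR adjusted p = 0.981). CPM is the normalised read count, scaled by library size and TMM factor. A count over the whole gene does not show whether the floxed part was deleted.

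Neutrophils lay down their granules in order as they mature in the marrow and, in mice, in the spleen. Promyelocytes make primary (azurophil) granules with myeloperoxidase and the serine proteases neutrophil elastase, proteinase 3 and cathepsin G. Myelocytes and metamyelocytes make secondary (specific) granules with lactoferrin, cathelicidin, neutrophilic granule protein and lipocalin 2. Messenger RNA for the primary proteins is largely gone by the time the secondary proteins are made. S100a8 and S100a9 encode the subunits of calprotectin, a calcium-binding protein of the cytosol and not of granules, which is abundant through the late stages and is also made by monocytes. Conventional CD4+ T cells are not known as a source of these granule proteins. In bulk RNA, fewer cells of a type and less RNA per cell cannot be told apart.

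The upstream sequences are shown because transcription of these genes depends in general on PU.1, a factor of all myeloid cells, and on C/EBP factors, of which C/EBP epsilon marks the secondary granule stage. All 10 members matched a RefSeq promoter on GRCm38.p6, and the windows searched were the 250 bases before each RefSeq start, on both strands. The windows of Prtn3 and Lcn2 lay inside a longer GENCODE transcript of the gene. Parts of some other windows lay past another GENCODE start, up to 203 bases for Mpo. The counts of members with a motif use whole windows. The motifs were GAGGAA for PU.1 and TTGCNNAA for C/EBP, and no match of one overlapped a match of the other in a member. Printed below are the parts of 6 windows that lie upstream of both the RefSeq start and the outermost GENCODE start nearby, 5′ to 3′ on the gene's strand, with matches in capitals. Matches on the other strand are printed as their reverse complement, so GAGGAA reads as TTCCTC.
Mpo, chr11:87793534-87793580 (plus strand): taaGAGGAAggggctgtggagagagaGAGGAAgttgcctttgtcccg
Elane, chr10:79886062-79886246 (plus strand): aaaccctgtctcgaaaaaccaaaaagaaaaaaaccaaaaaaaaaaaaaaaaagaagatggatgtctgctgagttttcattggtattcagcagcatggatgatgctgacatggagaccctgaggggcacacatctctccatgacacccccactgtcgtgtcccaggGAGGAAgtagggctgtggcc
Ctsg, chr14:56102575-56102824 (minus strand): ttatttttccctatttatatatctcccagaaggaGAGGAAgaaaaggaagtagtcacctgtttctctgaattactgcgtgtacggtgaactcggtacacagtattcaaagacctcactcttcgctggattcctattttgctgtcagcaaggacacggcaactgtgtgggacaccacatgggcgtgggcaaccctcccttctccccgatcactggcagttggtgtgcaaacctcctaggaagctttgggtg
Ltf, chr9:111019042-111019270 (plus strand): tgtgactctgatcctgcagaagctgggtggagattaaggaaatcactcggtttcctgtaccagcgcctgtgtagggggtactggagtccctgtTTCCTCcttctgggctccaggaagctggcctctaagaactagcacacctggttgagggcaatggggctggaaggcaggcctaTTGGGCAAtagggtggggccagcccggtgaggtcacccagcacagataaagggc
Ngp, chr9:110419558-110419746 (plus strand): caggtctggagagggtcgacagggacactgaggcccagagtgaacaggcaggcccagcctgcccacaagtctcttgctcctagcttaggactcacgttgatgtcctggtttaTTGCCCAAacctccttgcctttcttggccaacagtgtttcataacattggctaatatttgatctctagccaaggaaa
S100a9, chr3:90695722-90695971 (minus strand): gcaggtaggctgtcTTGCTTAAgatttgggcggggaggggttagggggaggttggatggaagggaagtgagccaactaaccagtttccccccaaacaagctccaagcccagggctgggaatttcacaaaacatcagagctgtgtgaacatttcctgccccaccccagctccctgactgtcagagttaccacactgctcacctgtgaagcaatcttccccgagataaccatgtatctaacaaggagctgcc
The PU.1 motif was in the window of 4 of 4 primary genes, always on the gene's own strand, and in 3 of 6 later genes (Ltf, Lcn2 and S100a8), always on the other strand, against 23.3% of 32851 promoters. The C/EBP motif was in 0 of 4 primary genes and in 4 of 6 later genes (Ltf, Ngp, Lcn2 and S100a9), against 9.56% of the same promoters. In Elane the PU.1 match lay 85 to 80 bases and in Prtn3 95 to 90 bases before the start. In Ltf the C/EBP match lay 75 to 68 bases before the start, and Ngp had a second match 11 to 4 bases before it, outside the printed stretch. Camp had neither motif in its window. A match describes the letters and does not show binding.

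In all 6 libraries the later genes were far more abundant than the primary genes. On the authors' FPKM scale, which accounts for gene length, the mean level over the 6 libraries descended from S100a9 (122 FPKM) and S100a8 (78.8) to Ngp (20.4), Camp (9.07), Ltf (5.56) and Lcn2 (4.23). The 4 primary genes followed at 0.951 FPKM for Elane, 0.560 for Ctsg, 0.528 for Prtn3 and 0.517 for Mpo. Each gene from S100a9 to Camp was above the next in 6 of 6 libraries, Ltf was above Lcn2 in 5, Lcn2 above Elane in 6 and Elane above Ctsg in 5. Ctsg, Prtn3 and Mpo could not be ordered, since each was above the next in 3 of 6 libraries. For scale, Cd3e, which encodes a T cell receptor subunit, had a mean of 69.6 FPKM and a range from 59.0 to 79.7, and S100a9 (67.2 to 208) exceeded it in 4 of 6 libraries. Cd4 (204 FPKM) and the receptor constant gene Trac (470 FPKM) were above S100a9 in 6 of 6. All 10 T cell markers were tested and their summed level ran from 4759 to 5017 CPM in the controls and from 4260 to 4655 CPM with Ogt-KD, so markers of the labelled cell type were abundant in every library.

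Among the primary granule genes, Mpo, the haem peroxidase that makes hypochlorous acid (ENSMUSG00000009350, chr11:87793581-87804413), stood at 0.548, 1.89 and 2.31 CPM in control replicates 1, 2 and 3. The Ogt-KD replicates had 2.30, 2.43 and 1.20 CPM. The groups overlapped, with control replicate 1 lowest of all at 12 reads and Ogt-KD replicate 2 highest at 48. Elane, the elastase (ENSMUSG00000020125, chr10:79886247-79888215), had 0.594, 0.805 and 1.13 CPM in the controls, and 1.42, 1.47 and 0.240 CPM with Ogt-KD. Ogt-KD replicates 1 and 2 were above every control and Ogt-KD replicate 3, with 6 reads, was below every control. Prtn3, the proteinase 3 gene (ENSMUSG00000057729, chr10:79874476-79883174), lies next to Elane and had 0.365, 1.53 and 0.620 CPM in the controls, and 1.08, 1.17 and 0.759 CPM with Ogt-KD. Its model overlaps Plppr3 on the other strand. The strand setting of the counting is not given in the sources used here, so reads of the pair may not be separable. Plppr3 had 3197 reads in total, where Prtn3 had at most 38 in a library. The primary sums, the primary median and the share of Ctsg include Prtn3 and carry this limit. Ctsg, the cathepsin G gene (ENSMUSG00000040314, chr14:56099881-56102574), had 0.411, 0.644 and 0.845 CPM in the controls, and 0.294, 0.456 and 0.839 CPM with Ogt-KD. Ctsg ran in another order from Mpo and Elane: both replicate 3 libraries were its highest, and Ogt-KD replicate 1, which was high for Mpo and Elane, was its lowest.

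The share of Ctsg among the reads of the 4 primary genes describes this difference within each library. It was 21.4% (95% exact binomial interval 10.3 to 36.8), 13.2% (7.75 to 20.6) and 17.2% (9.98 to 26.8) in control replicates 1, 2 and 3. It was 5.77% (2.15 to 12.1), 8.26% (3.85 to 15.1) and 27.6% (17.99 to 39.1) in Ogt-KD replicates 1, 2 and 3. The intervals of Ogt-KD replicate 3 and of Ogt-KD replicates 1 and 2 did not overlap, and the control shares lay between them. Ctsg was singled out after its values in these same libraries were seen, so this gap is a description and not a test. These intervals cover counting error only. The primary genes summed to between 42 and 121 reads per library, which limits the precision of each of their values.

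Among the secondary granule genes, Ltf, which encodes the iron-binding lactoferrin (ENSMUSG00000032496, chr9:111019271-111042767), had 10.7, 17.1 and 18.2 CPM in the controls, and 19.4, 41.9 and 8.67 CPM with Ogt-KD. Ngp, which encodes a cathelin-related granule protein (ENSMUSG00000032484, chr9:110419747-110423012), had 14.2, 21.4 and 28.9 CPM in the controls, and 22.04, 50.3 and 13.9 CPM with Ogt-KD. Both were highest in Ogt-KD replicate 2 and lowest in Ogt-KD replicate 3, so the extremes of all 6 libraries were within the Ogt-KD group. Camp, the antimicrobial cathelicidin gene (ENSMUSG00000038357, chr9:109847379-109849617), had 5.62, 4.63 and 8.51 CPM in the controls, and 5.44, 13.2 and 4.12 CPM with Ogt-KD. Lcn2, which encodes the siderophore-binding lipocalin 2 (ENSMUSG00000026822, chr2:32384633-32388252), had 6.12, 9.42 and 14.7 CPM in the controls, and 9.11, 21.3 and 6.35 CPM with Ogt-KD. Camp and Lcn2 repeated the pattern of a single high library, with control replicate 3 second in both.

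The calprotectin genes followed a different order. S100a8 (ENSMUSG00000056054, chr3:90668978-90670035) had 44.5, 28.7 and 78.6 CPM in the controls, and 34.3, 79.3 and 64.8 CPM with Ogt-KD. S100a9 (ENSMUSG00000056071, chr3:90692632-90695721) had 49.2, 35.0 and 80.5 CPM in the controls, and 41.3, 110 and 67.8 CPM with Ogt-KD. For both genes Ogt-KD replicate 2 and both replicate 3 libraries were high and control replicate 2 was lowest. Ogt-KD replicate 3, at the bottom for Ltf, Ngp, Camp and Elane, was below only Ogt-KD replicate 2 and control replicate 3 for S100a8 and S100a9. The level of S100a8 as a percentage of S100a9 in CPM was 90.1 ± 7.75 in the controls and 83.7 ± 11.7 with Ogt-KD (SD, n = 3 each), with overlapping groups.

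**Figure D1:**
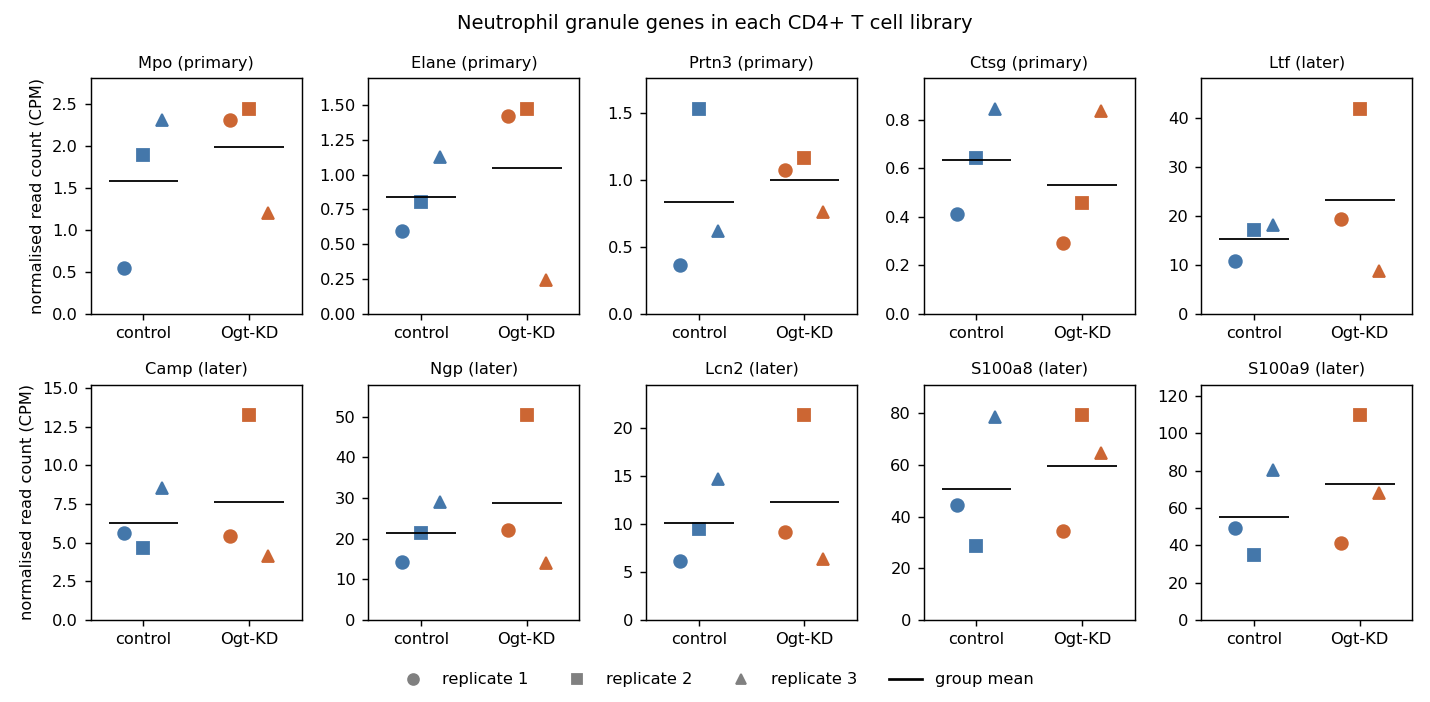
Normalised read count (CPM, vertical axis from 0, scaled per gene) of the 10 members in the 3 control (blue) and 3 Ogt-KD (orange) libraries, with symbols for the replicate number and a line at each group mean. The groups overlap for every member, and Ogt-KD replicate 2 is highest for 8 of them.

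No member passed the test between Ogt-KD and control libraries. All 10 passed the filter on low counts, 9 had a log2 fold change above 0 and 1, Ctsg, below it, where 49% of all 16075 tested genes lay above 0. With edgeR's quasi-likelihood test and Benjamini-Hochberg adjustment over all tested genes, 0 of 10 were called, against 0.00622% of all genes (1 gene). At an unadjusted p under 0.05 there were 0 of 10, against 7.52% of all genes. Groups without overlap were seen for 0 of 10 members, against 13.3% of all genes, and 3 Ogt-KD values all above the controls for 0 of 10, against 7.43%. With the replicate number as a block 0 of 10 were called, against 0.292% of all genes, and DESeq2 and limma-voom also called 0. In the authors' deposited table the smallest p of a member was 0.193, for Ltf.

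Among the primary genes the log2 fold changes were 0.32 for Mpo (SE 0.53, adjusted p = 0.970 by edgeR), 0.30 for Elane (SE 0.63), 0.22 for Prtn3 (SE 0.53) and -0.22 for Ctsg (SE 0.49). Their median was 0.26, against a median of -0.0048 over all tested genes. Among the later genes Ltf had the highest value, 0.60 (SE 0.52, adjusted p = 0.902 by edgeR), with Ngp at 0.42, Lcn2 at 0.28, Camp at 0.28, S100a9 at 0.41 and S100a8 at 0.24. The median of the 6 was 0.35. The 95% intervals leave room for sizeable differences in both directions: the Ogt-KD level could lie between 0.644 and 3.58 times the control level for Ltf, 0.681 and 2.60 times for S100a9, and 0.436 and 3.46 times for Elane.

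The sign of the later genes depended on Ogt-KD replicate 2, and that of S100a8 also on control replicate 2 (-0.047 without it). Without Ogt-KD replicate 2, 6 of 6 later genes had a log2 fold change below 0, from -0.39 for Camp to -0.0060 for S100a9, with a median of -0.20. The primary median was then 0.026. Without control replicate 1, the library lowest for Mpo and Prtn3, the primary median was -0.11, with Mpo at -0.091 and Prtn3 at -0.14. Without both libraries numbered 3 the medians were 0.58 for the primary and 0.91 for the later genes, and no member passed there either (smallest adjusted p = 0.251 by edgeR, for Elane, 0.251 to 1 over its alternatives).

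**Figure D2:**
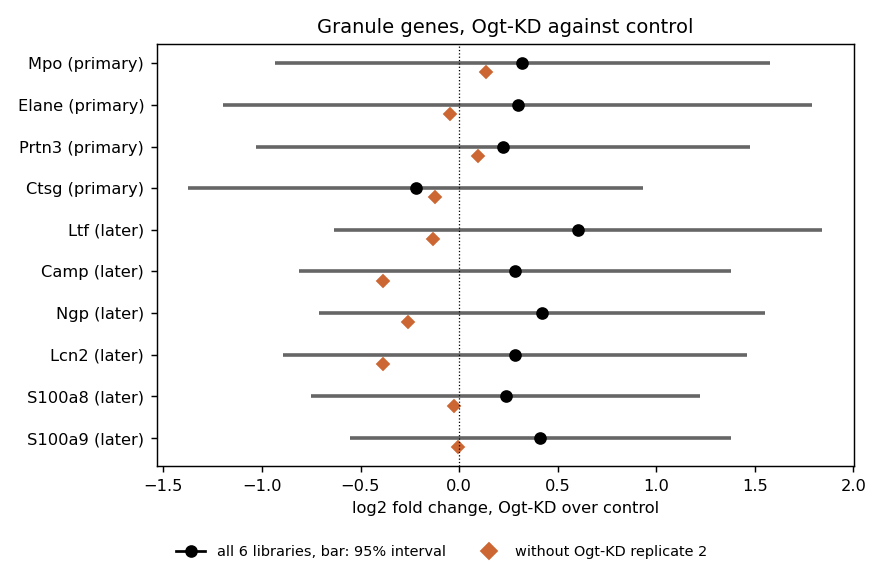
Log2 fold change, Ogt-KD against control (horizontal axis), for each member, as black points with 95% intervals from all 6 libraries and orange diamonds without Ogt-KD replicate 2. Every interval spans 0, and the diamonds of the 6 later genes lie below 0.

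The balance between the maturation classes differed from library to library and not between the groups beyond their spread. Summed reads of the primary genes were 1.47% (95% exact binomial interval 1.06 to 1.995), 4.19% (3.47 to 5.03) and 2.14% (1.71 to 2.64) of those of the later genes in control replicates 1, 2 and 3. They were 3.87% (3.15 to 4.71), 1.75% (1.43 to 2.11) and 1.83% (1.44 to 2.30) in Ogt-KD replicates 1, 2 and 3. Control replicate 2 and Ogt-KD replicate 1 thus had the largest primary share, with intervals apart from those of the other 4 libraries. This ranking holds with S100a8 and S100a9 among the later genes and changes without them, as given below. Reads are not independent molecules, and these intervals again cover counting error only. On the log2 scale the ratio was -5.40 ± 0.766 in the controls and -5.43 ± 0.642 with Ogt-KD (SD, n = 3 each), a difference of -0.029 with overlapping groups. Both classes were summed over genes of unequal length, so the percentages describe libraries against each other and not amounts of protein.

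Within the later class the secondary granule genes and the calprotectin genes also parted. Reads of Ltf, Camp, Ngp and Lcn2 came to 39.1%, 82.5% and 44.2% of those of S100a8 and S100a9 in control replicates 1, 2 and 3. In Ogt-KD replicates 1, 2 and 3 they came to 74.1%, 67.1% and 25.0%. Control replicate 2 and Ogt-KD replicates 1 and 2 formed the high side, and control replicates 1 and 3 and Ogt-KD replicate 3 the low side, so both sides held both groups. The log2 ratio was -0.94 ± 0.578 in the controls and -1.004 ± 0.868 with Ogt-KD (SD, n = 3 each). When S100a8 and S100a9 were left out of the later class, the log2 ratio of primary over later genes differed by 0.034 between the groups. The primary reads then came to 5.24%, 9.28% and 6.97% of those of Ltf, Camp, Ngp and Lcn2 in control replicates 1, 2 and 3. They came to 9.09%, 4.36% and 9.18% in Ogt-KD replicates 1, 2 and 3. Ogt-KD replicate 3 thus stood near control replicate 2 and Ogt-KD replicate 1.

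**Figure D3:**
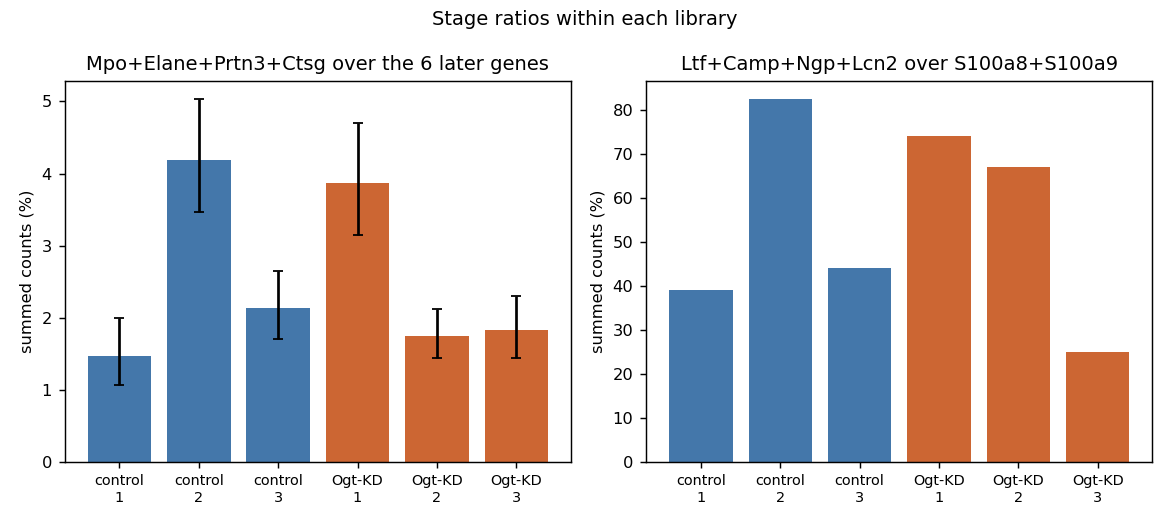
Left, summed counts of the 4 primary genes as a percentage of those of the 6 later genes in each library, with 95% exact binomial intervals. Right, summed counts of Ltf, Camp, Ngp and Lcn2 as a percentage of those of S100a8 and S100a9. Control replicate 2 and Ogt-KD replicate 1 are highest on the left at 4.19% and 3.87%, and Ogt-KD replicate 3 is lowest on the right at 25.0%.

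Likeness between members was measured as the mean absolute difference of their log2(CPM + 1) profiles over the 6 libraries, each centred on its own mean, so that 0 is an identical profile. This is a description over 6 shared libraries. Of 45 pairs the closest were Ngp and Lcn2 (0.075), S100a8 and S100a9 (0.126) and Ltf and Ngp (0.158), and the most distant was Ltf and S100a8 (0.727). Mpo and Elane were the closest primary pair (0.211). The adjacent genes Elane and Prtn3 were farther apart (0.334), about as far as Elane and Ngp (0.295), a gene of the other class. The pseudocount of 1 shrinks differences at the low levels of the primary genes. Among the 12498 tested genes outside the lists with a mean log2 CPM of at least 1, the 5 profiles nearest to the summed primary class were those of Mfsd2a (0.088), Gm42047, Enkd1, Mpp2 and Gm8989. The 5 nearest to the summed later class were those of Nfam1 (0.169), Rasgef1b, Cd33, Cd300ld and Tnfaip2, of which Cd33 and Cd300ld encode myeloid surface receptors.

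Genes of other steps of neutrophil development did not pass either. Of 13 tested progenitor genes 8 lay above 0 and 0 were called, with a median log2 fold change of 0.10. Those with the smallest p were Nkg7 (0.99), which cytotoxic lymphocytes also express, Hp (0.64), which encodes haptoglobin, Cd63 (0.20), a granule membrane protein, and Ctsc (-0.48), the peptidase that activates the primary granule proteases. Ms4a3, Prss57 and Cebpe did not pass the filter on low counts. Ctsc, Cebpa, Clec12a, Igsf6 and Tfec were highest in control replicate 3 and second in Ogt-KD replicate 3, as was the macrophage marker sum given below. Calr and Srgn averaged 477 and 345 CPM in the controls, above every member. Whether the reads of the listed genes came from progenitor cells was not tested. The groups did not overlap for 1 of the 13, Nkg7, against 13.3% of all genes. Without Ogt-KD replicate 2, 6 of 13 lay above 0 with a median of -0.047.

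Of 17 other tested secondary and gelatinase granule genes 13 lay above 0, 0 were called and the median was 0.17. Pglyrp1, a peptidoglycan recognition protein, averaged 24.3 ± 2.93 CPM in the controls and 35.9 ± 4.78 CPM with Ogt-KD (SD, n = 3 each; log2 fold change 0.56, edgeR adjusted p = 0.526). The groups did not overlap for 3 of the 17, namely Pglyrp1 and Itgam, which were higher with Ogt-KD, and Cnn2, which was lower, against the 13.3% of all genes given above. Mmp9, the gelatinase of tertiary granules, had 0.92, Itgam, the alpha chain of the Mac-1 integrin, 0.58 and Retnlg 0.46. Without Ogt-KD replicate 2, 9 of 17 lay above 0 with a median of 0.049, and the values were 0.47 for Pglyrp1, 0.22 for Mmp9, 0.29 for Itgam and 0.32 for Retnlg. All 6 NADPH oxidase genes were tested, 5 lay above 0 and the median was 0.070, with Ncf1 at 0.58, Ncf4 at 0.18, Cyba at 0.073 and Rac2 at 0.048. These oxidase genes are also expressed by other leukocytes.

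Genes of mature neutrophils were led by the same high library. Above 0 were 19 of the 23 that could be tested, with 0 called, and their median on the log2 scale was 0.83. Csf3r, the receptor for granulocyte colony-stimulating factor, had 11.3, 11.9 and 10.9 CPM in the controls, and 11.5, 62.1 and 13.3 CPM with Ogt-KD (log2 fold change 1.35, SE 0.63, edgeR adjusted p = 0.684). Cxcr2, the chemokine receptor of circulating neutrophils, had 1.87, 2.50 and 1.97 CPM in the controls, and 3.62, 14.3 and 2.88 CPM with Ogt-KD (1.71, SE 0.63). For both genes Ogt-KD replicate 2 was far above the other 5 libraries. Il1r2 had a log2 fold change of 0.86 and Hdc, which makes histamine, 1.17. Without Ogt-KD replicate 2, 11 of 23 lay above 0 with a median of -0.029, and the values were 0.13 for Csf3r, 0.61 for Cxcr2, 0.62 for Il1r2 and 0.18 for Hdc. The groups did not overlap for 3 of the 23 (Cxcr2, Il1r2 and Hdc), about the share of 13.3% over all genes. Of 10 tested transcription factors and growth factor receptors 7 lay above 0 (median 0.28), with Csf2rb at 0.65, Per3 at 0.53 and Spi1, which encodes PU.1, at 0.46, and 0 were called. The groups did not overlap for 3 of the 10 (Csf2rb, Per3 and Spi1), against the same 13.3%. Without Ogt-KD replicate 2, 6 of 10 lay above 0 with a median of 0.088.

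The excess of Ogt-KD replicate 2 over the other libraries was unequal among the lists. Its CPM over the median of the other 5 libraries had a median of 1.41 over the 4 primary genes, 2.35 over the 6 later genes and 3.18 over the 23 mature neutrophil genes, against 0.996 over all tested genes. It was 0.947 over the progenitor genes, 1.39 over the other secondary and gelatinase granule genes, 1.51 over the transcription factors and receptors and 1.16 over the NADPH oxidase genes. The list medians did not follow the order of maturation, since the other secondary and gelatinase genes were about level with the primary members. These medians stand for lists of unlike genes. The other secondary and gelatinase genes ran from 0.942 for Lyz2 to 3.31 for Mmp9, and the progenitor genes from 0.465 for Tfec to 2.96 for Fcnb. Among the primary members the ratio was 1.29 for Mpo, 1.83 for Elane, 1.54 for Prtn3 and 0.708 for Ctsg. Among the later members it ran from 1.78 for S100a8 to 2.45 for Ltf, so S100a8 was below Elane. Mature genes ranged widely, with 5.75 for Cxcr2 and 5.39 for Csf3r but 1.01 for Fpr2 and 0.508 for Fpr1, both formyl peptide receptors. The library was highest for 2 of 4 primary, 6 of 6 later and 18 of 23 mature genes, against 18.1% of all tested genes. Ogt-KD replicate 3 was highest for 0 of 10 members, against 24.4%. Control replicate 1 was lowest for 3 of 10 (Mpo, Prtn3 and Lcn2), against 14.5%. These libraries were singled out after their values for the members were seen, so the counts are a description and not a test. Several mature genes on the list, such as Il1b and Cxcl2, are also made by activated monocytes and macrophages. Il1b had 57.4 CPM in Ogt-KD replicate 2 and at most 11.8 in the others, and Cxcl2 24.1 and at most 5.85.

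**Figure D4:**
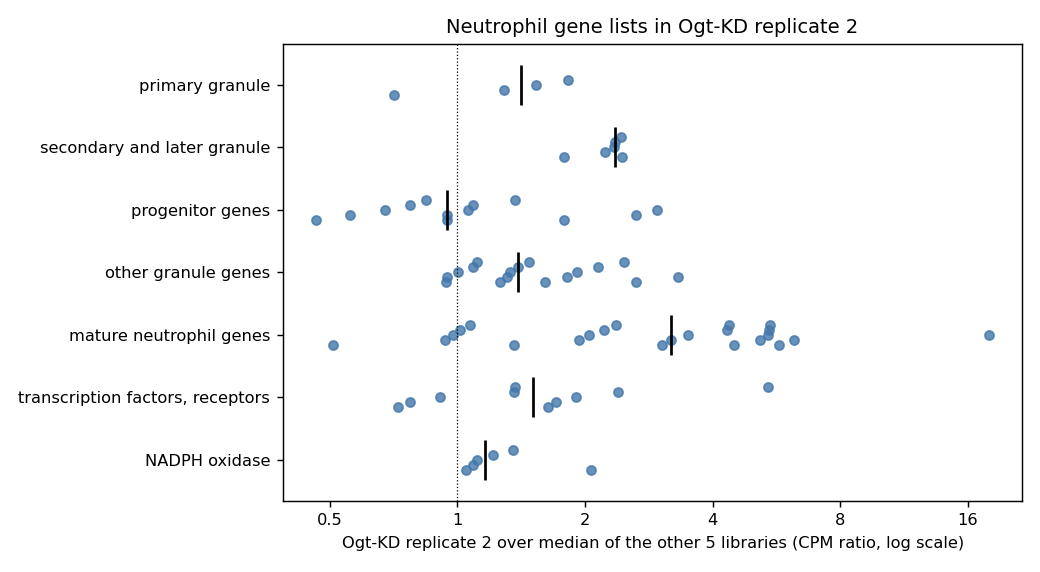
Ratio of the CPM in Ogt-KD replicate 2 to the median CPM of the other 5 libraries (log-scaled horizontal axis) for each tested gene of 7 neutrophil lists, with a bar at the list's median. The medians are 1.41 for the primary and 2.35 for the later members, 0.947 for progenitor, 1.39 for other secondary and gelatinase and 3.18 for mature neutrophil genes, 1.51 for transcription factors and receptors and 1.16 for NADPH oxidase.

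Markers of other cell types moved with these libraries. The summed level of 10 macrophage markers, all tested, was 1873 to 4669 CPM in the controls and 810 to 4376 CPM with Ogt-KD. It was highest in the 2 replicate 3 libraries. Ctsg was also highest there in CPM, but on 15 reads in control replicate 3 and 21 in Ogt-KD replicate 3. Control replicate 2 had 16 Ctsg reads. The 10 monocyte markers, all tested, summed to 468 to 844 CPM in the controls and 337 to 716 CPM with Ogt-KD. Most of that sum was Csf1r, with 290 to 655 CPM in the controls and 124 to 503 CPM with Ogt-KD. Of the 10 monocyte markers 6 lay above a log2 fold change of 0 and 4 below, with a median of 0.34. The 10 dendritic cell markers summed to 377 to 776 and 650 to 1767 CPM, highest in Ogt-KD replicate 2. Most of that sum was Cd74 (948 CPM in that library) and H2-Ab1 (615 CPM). Of 17 erythroid markers 16 were tested, with 33.1 to 73.5 CPM in the controls and 67.0 to 248 CPM with Ogt-KD, highest in Ogt-KD replicate 3. Of 9 eosinophil markers 4 were tested, with sums of 54.7 to 155 CPM in the controls and 24.7 to 115 CPM with Ogt-KD. Most of that was Ccr3 and Ear2, both highest in the 2 replicate 3 libraries, as the macrophage sum was. The eosinophil peroxidase gene Epx stood at 0.225 CPM or less in every library. Of 10 basophil and mast cell markers 3 were tested, with sums of 11.4 to 19.1 and 17.6 to 55.9 CPM. Most of those sums was Kit and Hdc, and Fcer1a had 0 reads in the 3 control libraries. B cell markers (10 of 10 tested) summed to 534 to 1031 and 737 to 882 CPM. Most of that was Ighm, with 438 to 895 CPM in the controls and 613 to 725 CPM with Ogt-KD. Stem and progenitor markers (4 of 8 tested) summed to 51.3 to 75.0 and 63.5 to 112 CPM, mostly Myb, Kit and Flt3. Kit is also on the basophil and mast cell list, and Flt3 on the dendritic cell list. With the replicate number as a block no member passed. There the dendritic cell markers Itgax, Zbtb46 and H2-Ab1 and erythroid markers such as Slc4a1 and Car2 rose, and Ccr3 of the eosinophil list fell. The edgeR adjusted p of these markers ran from 0.036 to 0.048. They were 3 of 10 tested dendritic cell, 3 of 16 erythroid and 1 of 4 eosinophil markers, against 0.292% of all genes. None of these passed without the block, where 3 of the 4 eosinophil markers lay below 0 and 1 above. The part of these cells in the member values was not tested.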

How the data were processed

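RNA was sequenced from 6 libraries, 3 Ogt-KD and 3 control, grouped by their titles. Per the labels' protocols, RNA came from frozen cells by Trizol and was built into TruSeq libraries. Per the submitters' processing notes, the tools were Bowtie2 2.0.6 and TopHat2 2.0.9 and the build mm9. The sources used here do not give the counting tool or its strand setting. The deposited table holds whole-number counts per gene by the authors, with totals from 18127031 to 25683453. It also holds the authors' FPKM, used for levels between genes, and the authors' mean normalised signal per group, which was not used. The authors' log2 fold change and p-value come from a test whose tool these sources do not name. The deposited gene length in bases is an other unit, given with the table. The coordinates of all 10 members equal those of GENCODE M21 (GRCm38), not mm9, and are given on GRCm38.

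Counts were tested with edgeR 4.0.16 (quasi-likelihood F test, robust, TMM, filterByExpr, Benjamini-Hochberg, threshold 0.05) in R 4.3.3 over 16075 of 28456 genes with a count, after the procedure was tested on simulated data. DESeq2 1.42.0, limma-voom (limma 3.58.1), no TMM, no filter, a replicate block and left-out libraries were alternatives. The members, lists and tests were chosen with earlier results of these data known. Named genes were the members, Ogt, up to 4 genes of smallest p per list and the 5 nearest profiles per class. Cd3e, Cd4, Epx, Fcer1a, Il1b, Cxcl2, Fpr1, Fpr2, Cnn2, Lyz2, Tfec, Fcnb and Csf1r were named after their values were seen. So were Ms4a3, Prss57, Cebpe, Cebpa, Clec12a, Igsf6, Srgn, Calr, Cd74, Ighm, Myb, Kit, Flt3, Ear2 and the markers that passed with the block. The comparison of Ctsg within the primary class and the split of the later class at S100a8 and S100a9 were also chosen then. So were the counts of how often a given library was highest or lowest. Deviations from group means of same-numbered libraries correlated across genes at 0.109, 0.346 and 0.523 on edgeR's log CPM, and the first was 0.091 on log2(CPM + 1). A pairing by number is therefore uncertain for the first pair, and it entered the replicate block but not the main test. Ogt-KD replicate 1 correlated more with control replicate 2 (0.267) than with control replicate 1 (0.109). No 2 libraries were copies (chi-squared per degree of freedom of at least 10.8). The labels name 3 mice per group but no litters, and p-values measure the spread between these samples.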

Additional observations from a re-analysis of the deposited data

How the results depend on the processing

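Of 120 alternative values of the 10 members, 106 kept their direction, 14 changed sign and 0 passed the threshold, with a smallest adjusted p of 0.251. The lowest and highest log2 fold changes with 1 library left out were -0.091 and 0.65 for Mpo, -0.045 and 0.79 for Elane, -0.14 and 1.03 for Prtn3, -0.74 and 0.061 for Ctsg, -0.13 and 0.998 for Ltf, -0.39 and 0.58 for Camp, -0.26 and 0.75 for Ngp, -0.38 and 0.63 for Lcn2, -0.047 and 0.68 for S100a8, and -0.0060 and 0.77 for S100a9. Elane was -0.077 with limma-voom. The primary median ran from -0.11 to 0.49 and the later median from -0.20 to 0.67 with 1 library left out, and the primary median was 0.58 without both libraries numbered 3. The difference in the log2 ratio of primary over later genes ran from -0.40 to 0.38 with 1 library left out. The count of called genes was 1 as tested, 111 with DESeq2, 4 without a filter, 47 with the replicate block, 35 without both libraries numbered 3, and 1 to 2 with 1 library left out, the 2 being reached when Ogt-KD replicate 2 or 3 was dropped. The cause of these changes was not tested. The replicate block changed no call among the members. Reads of the primary genes, 42 to 121 per library, limit what could be detected for them.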
